A study of Mus musculus with 6 samples.

Results

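Arginine can be split by arginase into ornithine and urea, or oxidised by nitric oxide synthase to nitric oxide and citrulline, and the enzymes draw on the same substrate. Arg1 encodes the cytosolic arginase, which macrophages make during wound healing, and Arg2 encodes the mitochondrial arginase. Ornithine is the starting point for polyamines, through ornithine decarboxylase, and for proline, through ornithine aminotransferase. Described here are 8 of the 12969 genes in the deposited table: Arg1 and Arg2, the inducible nitric oxide synthase Nos2, the citrulline-recycling enzyme Ass1, the cationic amino acid transporter Slc7a2, ornithine decarboxylase Odc1, ornithine aminotransferase Oat, and Vti1b, a vesicle fusion gene that overlaps Arg2 and is shown for that reason. The genes were taken by symbol, and the group was chosen by values of this table, the RPKM differences between the genotypes. That difference is therefore given below as a description and supports nothing.

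RNA-seq was run on infarcted heart from male mice about 12 weeks old, 4 days after permanent suture ligation of the left anterior coronary artery. The groups were 3 libraries from IRF3-/- mice (Irf3KO) and 3 from wild-type mice (WT), the latter labelled C57BL/6. The sources used here do not give the strain of the IRF3-/- mice, the design of the deleted allele or any pooling of animals. Irf3 encodes a transcription factor that turns on type I interferon genes, and the question put was what its loss changes in infarct transcripts. Values are RPKM, reads scaled to gene length and to the depth of the library.

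Irf3 was lower but still read in the Irf3KO libraries, at 7.40, 8.74 and 7.68 RPKM against 13.76, 13.87 and 11.56 RPKM in WT. Depth, as used to scale the RPKM values, was 61.9 M reads in Irf3KO replicate 3 and 14.8 to 20.8 M in the other libraries. The sources used here do not say whether it counts reads in genes or all mapped reads. Irf3KO replicate 2 stood apart, with a mean correlation to the other libraries of 0.907 where the others had 0.941 to 0.966. Genes of cardiomyocytes (12 of 12 markers), fibroblasts (12 of 12) and macrophages (13 of 13) were in the table. Of lymphocyte markers 1 of 8 was, and of hepatocyte markers 0 of 8. In bulk tissue, fewer cells of a type and less RNA per cell cannot be told apart.

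The pair of arginases are separate genes with diverged sequences, which matters for how reads are told apart. In the GENCODE M21 transcripts (GRCm38), the Arg1 coding sequence of 972 bases and the Arg2 coding sequence of 1065 bases matched at 65.3% of 966 aligned positions. The longest run of bases shared by the whole transcripts was 12, and 0 of the 1399 stretches of 30 bases in Arg2 occurred in Arg1. The stretch around that longest run is shown from coding base 508 to 549 of Arg1 and 565 to 606 of Arg2, counted from the start codon, with the shared run in capitals.
Arg1: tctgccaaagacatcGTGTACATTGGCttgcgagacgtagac
Arg2: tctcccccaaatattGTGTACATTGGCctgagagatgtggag

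Arg2 and Vti1b lie tail to tail on opposite strands. In GENCODE M21 their exons share 285 bases, which is 19.96% of the Arg2 length of 1428 bases and 17.7% of the Vti1b length of 1612 bases in the deposited table. The exonic lengths in GENCODE M21 are 1428 and 1612 bases as well, so the deposited lengths include the shared bases. Only 12 shared bases before the stop codon code for protein in Arg2, and 0 do in Vti1b. The last 30 bases of the Arg2 coding sequence, stop codon included, are shown with the bases inside the overlap in capitals.
Arg2 end: tcagaaaatgaagaaTGTGTGAGAATTTAG
The sources used here do not say whether the counting used strand, and reads from the shared bases cannot be assigned to either gene with certainty.

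Arg2 was the member whose genotypes were farthest apart, and it was higher in the knockout. It stood at 5.21, 2.67 and 4.58 RPKM in Irf3KO replicates 1 to 3 and at 1.08, 0.37 and 0.67 RPKM in WT replicates 1 to 3. Every Irf3KO library lay above every WT library. The means were 4.15 ± 1.32 and 0.707 ± 0.356 RPKM (SD, n = 3 per group), a ratio of 5.88. On the log2(RPKM + 1) scale, which understates the change of low genes, the difference was 1.58 ± 0.25 (SE), rank 20 from the top among the 12913 genes tested.

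These are low levels, and the reads behind them are few in WT. The steps of the RPKM values gave 110, 69 and 405 Arg2 reads in Irf3KO replicates 1 to 3 and 29, 11 and 15 in WT replicates 1 to 3. The smallest count, 11, has an exact Poisson 95% interval of 5.49 to 19.7 reads, which is 0.185 to 0.662 RPKM, and covers counting error only. The highest upper end in WT was 1.55 RPKM (replicate 1), and the lowest lower end in Irf3KO was 2.08 RPKM (replicate 2). These intervals leave out the variation between libraries. As the genes were chosen by this difference, the gap between the ends supports nothing. Arg2 passed the filter of a mean of at least 1 RPKM only through the Irf3KO libraries.

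Of the 8 genes, 1 was called in the fit across all genes (Arg2, higher), where 0.147% of the 12913 genes tested were called higher and 0.503% were called either way. A call is a limma p, adjusted by Benjamini-Hochberg over all genes, under 0.05. As this contrast is what brought the genes together, nothing is read from that count. With each of the 6 libraries left out in turn, the call for Arg2 (limma adjusted p = 0.0449) was kept in 1 fit and lost in the others. It was lost without Irf3KO replicate 1 (adjusted p = 0.0791), Irf3KO replicate 3 (0.170), WT replicate 1 (0.135), WT replicate 2 (0.238) and WT replicate 3 (0.257), and kept without Irf3KO replicate 2 (0.0122). The log2 difference lay between 1.43 and 1.81 in these fits. Each has 1 library fewer, so a lost call can also come from lost power. These adjusted p-values come from the contrast that chose the genes. They show only how the call hangs on single libraries and support nothing.

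Vti1b, which encodes a SNARE protein of vesicle fusion, differed little between genotypes. It read 56.82, 41.19 and 52.05 RPKM in Irf3KO and 47.55, 47.81 and 47.83 RPKM in WT, and the WT libraries lay inside the Irf3KO range. Its log2 difference was 0.05 ± 0.20 (SE, n = 3 per group), with a sign that turned under quantile normalization (-0.04) and without Irf3KO replicate 1 (-0.04). Arg2 came to 9.17%, 6.48% and 8.80% of the Vti1b RPKM in Irf3KO and to 2.27%, 0.774% and 1.40% in WT.

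The overlap can be put on the scale of Arg2. Vti1b reads spread evenly over its length would, if all those in the shared bases were counted for Arg2, add 9.49 to 9.55 RPKM to Arg2 in WT and 8.22 to 11.3 RPKM in Irf3KO. That is above the Arg2 value in every library, by 25.8 times in WT replicate 2 and by 2.18 times in Irf3KO replicate 1. Even coverage is an assumption, and how reads in the shared bases were counted is not given. What share of Vti1b reads, if any, is in the Arg2 row was not tested.

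**Figure D1:**
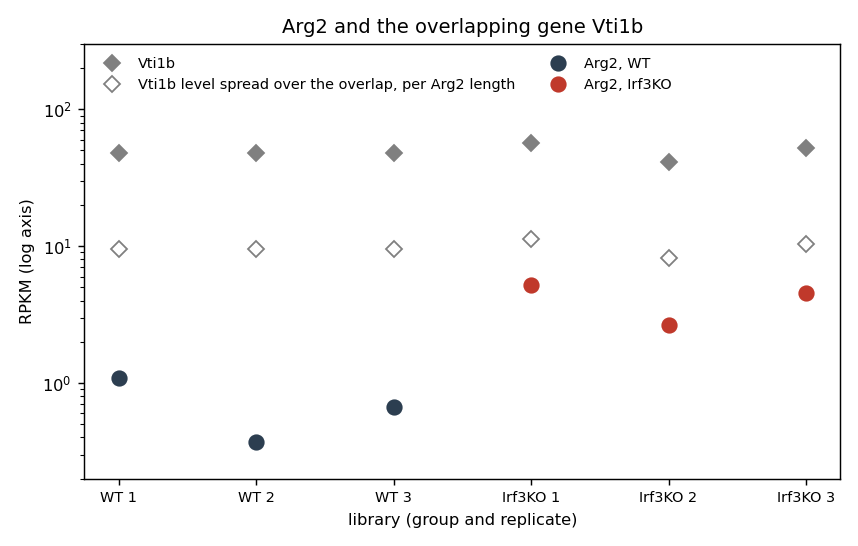
Arg2 (filled circles) and Vti1b (filled diamonds) in RPKM on a log axis for each library. Open diamonds give the Vti1b level that even coverage would put in the shared bases, expressed per Arg2 length. Arg2 sits at 0.37 to 1.08 RPKM in WT and at 2.67 to 5.21 RPKM in Irf3KO, under the open diamonds in all 6 libraries, while Vti1b stays between 41.19 and 56.82 RPKM.

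The genes around Arg2 had smaller differences, which is likely for any genes, as Arg2 was among those chosen by this difference. The 10 tested genes on each side, in RefSeq order, had log2 differences from -0.54 (Zfp36l1) to 0.47 (Fntb), with a median of -0.16, and 0 of the 20 were called by limma (1, Zfp36l1, had an unadjusted p under 0.05, where 8.4% of all genes did). Of the 20, 15 were below 0, as were 59.3% of all genes tested. Pigh, which stands on the other side of Arg2 from Vti1b, was at -0.38 ± 0.18 (SE, n = 3 per group; limma adjusted p = 0.556).

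Arg1 was far more abundant than Arg2 and varied more within a genotype than between genotypes. It read 132.17, 21.95 and 83.09 RPKM in Irf3KO and 202.55, 42.60 and 79.87 RPKM in WT. The groups overlapped, and the lowest library was Irf3KO replicate 2 and the highest WT replicate 1. The means were 79.1 ± 55.2 and 108 ± 83.7 RPKM (SD, n = 3 per group), and the log2 difference was -0.49 ± 0.72 (SE). It turned positive without Irf3KO replicate 2 (0.24) and without WT replicate 1 (0.10).

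The spread of Arg1 was unusual among genes. Highest over lowest library was 6.02 in Irf3KO and 4.75 in WT, and its SD within groups, 1.22 on the log2 scale, was above that of 99.6% of the 12913 genes tested. Slc7a2 also varied widely, above 93.8% of genes, while Odc1 was steadier, above only 8.36%. For Arg2 the figure was 63.3%.

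Arginase 2 was the minor arginase in every library. As a share of the summed arginase RPKM, Arg2 was 3.79%, 10.8% and 5.22% in Irf3KO replicates 1 to 3 and 0.530%, 0.861% and 0.832% in WT replicates 1 to 3. The groups did not overlap, and the largest share was in Irf3KO replicate 2, where Arg1 was lowest. The share is built from Arg2 values that entered the choice of the genes, so its separation restates that difference and supports nothing.

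Macrophage genes, and endothelial genes too, were high and low in much the same libraries as Arg1. The 13 macrophage markers, none at 0, summed to 5310, 1734 and 4196 RPKM in Irf3KO replicates 1 to 3 and to 5172, 2872 and 2747 RPKM in WT replicates 1 to 3. Lyz2 was the largest part of each sum, at 3826, 833 and 2859 RPKM in Irf3KO and 3289, 1772 and 1822 RPKM in WT. By the median marker, on the log2 scale against the WT mean, WT replicate 1 was highest (0.50) and Irf3KO replicate 1 next (0.26). The 3 libraries highest in the macrophage sum were the 3 highest in Arg1, and Irf3KO replicate 2 was lowest in both. The same held for the sum of 8 endothelial markers. It was highest at 338 RPKM in WT replicate 1 and 295 and 289 RPKM in Irf3KO replicates 1 and 3, and lowest at 175 RPKM in Irf3KO replicate 2. Within Irf3KO, Arg2 was lowest in replicate 2 as well, and in each genotype it was highest in the library with the highest macrophage sum. That library also had the highest neutrophil, endothelial, and red cell and platelet sums of its genotype. Within WT, Arg2 was lowest in replicate 2, as were the neutrophil and the red cell and platelet sums. The macrophage and endothelial sums were lowest in WT replicate 3. How far the content of macrophages or of other cell types enters the Arg1 and Arg2 values was not tested.

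**Figure D2:**
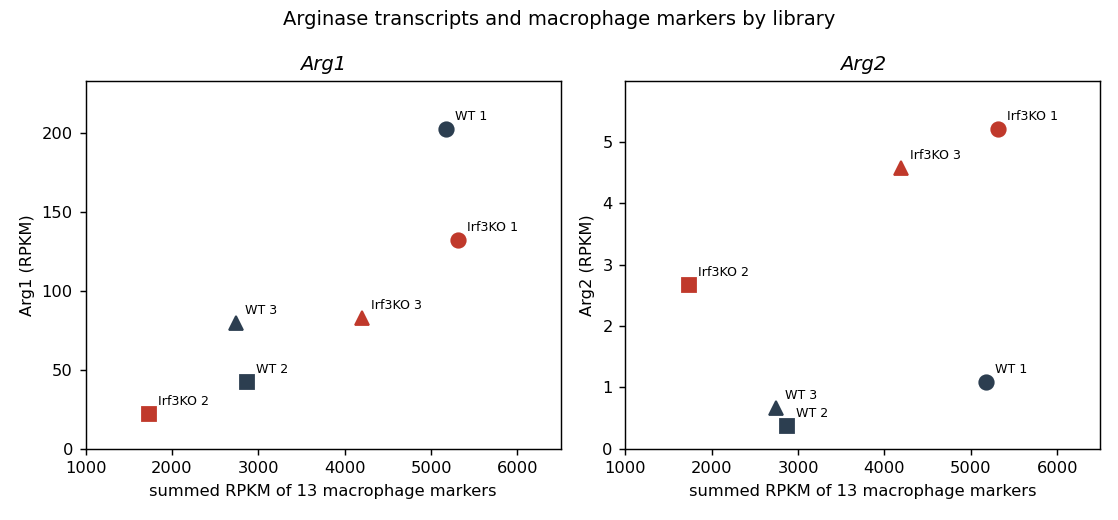
Arg1 (left) and Arg2 (right) in RPKM against the summed RPKM of 13 macrophage markers, 1 point per library, red for Irf3KO and dark blue for WT, with marker shape for the replicate number. Lyz2 is the largest part of the sum in each library. Arg1 is lowest in Irf3KO replicate 2 (21.95 RPKM, marker sum 1734) and highest in WT replicate 1 (202.55 RPKM, marker sum 5172), and Arg2 runs from 0.37 RPKM in WT replicate 2 to 5.21 RPKM in Irf3KO replicate 1.

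Other cell type markers stood as follows beside the Arg2 difference. The 6 neutrophil markers in the table summed to 59.2 to 76.1 RPKM in Irf3KO and 37.6 to 108 RPKM in WT. The 12 cardiomyocyte markers summed to 16210 to 24980 RPKM in Irf3KO and 7427 to 20735 RPKM in WT. The 8 endothelial markers summed to 175 to 295 RPKM in Irf3KO and 233 to 338 RPKM in WT. The 5 red cell and platelet markers summed to 312 to 1038 RPKM in Irf3KO and 186 to 646 RPKM in WT. These 4 sums, which a few abundant genes dominate, overlapped between genotypes. Gene by gene, the log2 difference was above 0 for 12 of 12 cardiomyocyte markers (median 0.60), the same sign as for Arg2. So it was for 5 of 5 red cell and platelet markers (median 0.92). It was below 0 for 10 of 13 macrophage, 11 of 12 fibroblast, 6 of 8 endothelial and 4 of 6 neutrophil markers. Of all genes tested, 59.3% were below 0. Within each genotype, the cardiomyocyte sum was lowest in the library where Arg2 was highest. The sums of the 12 fibroblast markers did not overlap, at 4009 to 5475 RPKM in Irf3KO and 6315 to 7197 RPKM in WT. A few abundant genes dominate these sums as well. Taken singly, 6 of the 12 had groups that did not overlap, all lower in Irf3KO, where 11.8% of all tested genes did so. No marker in these lists was at 0 in any library, and their part in the difference was not tested.

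Nos2, the inducible synthase that makes nitric oxide from arginine, was modestly higher in the knockout libraries. It stood at 5, 4.81 and 5.65 RPKM in Irf3KO and at 4.42, 3.56 and 2.91 RPKM in WT. The groups did not overlap, and the gap between the closest libraries was small, from 4.42 to 4.81 RPKM. The ratio of means was 1.42, and the log2 difference was 0.42 ± 0.19 (SE, n = 3 per group), between 0.31 and 0.54 with 1 library left out. Arg1 exceeded Nos2 in RPKM by 26.4, 4.56 and 14.7 times in Irf3KO and by 45.8, 12.0 and 27.4 times in WT, ranges that overlap.

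Ass1, which starts the recycling of citrulline to arginine, had the lowest mean of the 8 over the 6 libraries, although Arg2 was below it in each WT library. Its values were 1.79, 2.35 and 2.09 RPKM in Irf3KO and 2.34, 1.79 and 1.57 RPKM in WT, with overlapping groups and a log2 difference of 0.09 ± 0.18 (SE, n = 3 per group).

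Slc7a2, a transporter that brings arginine into macrophages and other cells, was lower in the knockout, most of all in 1 library. It stood at 6.00, 1.33 and 4.44 RPKM in Irf3KO and at 6.02, 7.68 and 6.58 RPKM in WT. The groups failed to overlap by 0.02 RPKM. The log2 difference was -0.79 ± 0.38 (SE, n = 3 per group) and -0.33 ± 0.17 without Irf3KO replicate 2. Of the 8 genes, 3 had groups that did not overlap (Arg2 and Nos2 higher, Slc7a2 lower), where 18.4% of all tested genes did, 6.61% higher and 11.8% lower.

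The ornithine-using enzymes differed between genotypes by less than their spread. Odc1, which makes putrescine from ornithine and so opens polyamine synthesis, read 26.51, 25.14 and 26.03 RPKM in Irf3KO and 28.39, 27.86 and 22.78 RPKM in WT. Its log2 difference was -0.02 ± 0.18 (SE, n = 3 per group), and it turned positive in 4 alternatives, reaching 0.10 with median-of-ratios scaling. Oat, a mitochondrial enzyme that turns ornithine toward proline and glutamate, read 112.45, 74.22 and 100.55 RPKM in Irf3KO and 98.84, 102.44 and 107.07 RPKM in WT. Its log2 difference was -0.12 ± 0.22 (SE, n = 3 per group), 0.0033 with median-of-ratios scaling and 0.05 without Irf3KO replicate 2, where Oat was lowest. For both genes the groups overlapped.

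**Figure D3:**
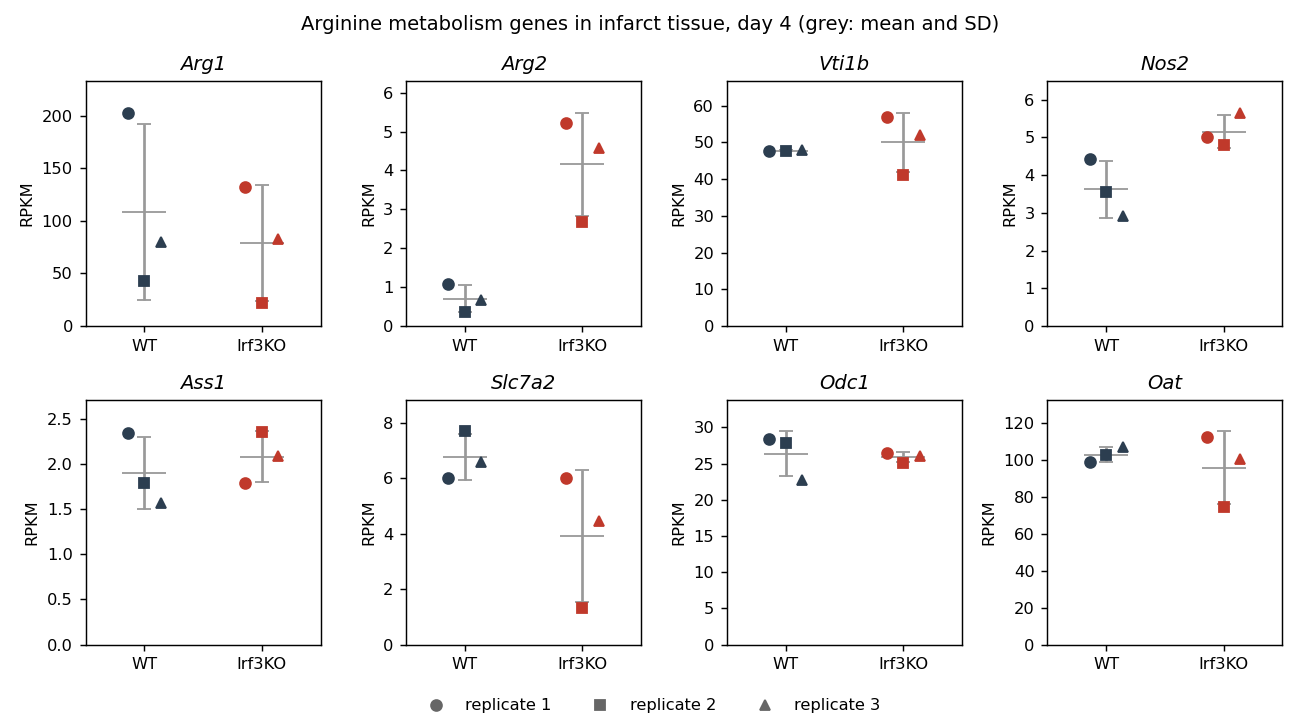
RPKM of the 8 genes in each library (1 panel per gene, axis from 0), WT in dark blue and Irf3KO in red, with marker shape for the replicate number and grey lines for the mean and SD of 3 libraries. Arg2 separates the genotypes (2.67 to 5.21 against 0.37 to 1.08 RPKM), Nos2 does so narrowly, and Arg1 spans 21.95 to 202.55 RPKM with overlapping groups.

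Because RPKM is scaled to length, levels can be set in order across genes. Mean RPKM over the 6 libraries was 99.3 for Oat, 93.7 for Arg1, 48.9 for Vti1b, 26.1 for Odc1, 5.34 for Slc7a2, 4.39 for Nos2, 2.43 for Arg2 and 1.99 for Ass1. The place of Arg2 depends on the genotype, since its means were 4.15 RPKM in Irf3KO and 0.707 RPKM in WT, and in WT it stood below Ass1 (1.90 RPKM). Arg1 spanned the levels of Oat, Vti1b and Odc1 and lay below Odc1 in Irf3KO replicate 2, and the ranges of Slc7a2, Nos2, Arg2 and Ass1 overlapped from each to the next. Odc1 was separate from Vti1b above it and Slc7a2 below it in all 6 libraries.

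Across the libraries, Arg1 and Arg2 ran with different genes. Over the 6 libraries and 7831 named genes whose mean was 5 RPKM or more, the profiles closest to Arg1 by Pearson r were Smpdl3a (0.996), Adnp2 (0.993), Serpinb2 (0.993), Ugt1a7c (0.992) and Bst1 (0.992). Serpinb2, a plasminogen activator inhibitor, read 11.60, 1.93 and 6.86 RPKM in Irf3KO and 17.97, 4.61 and 8.34 RPKM in WT. Those closest to Arg2 were Glrx (0.989), Ngrn (0.981), Rplp0-ps1 (0.974), Cops4 (0.964) and Thoc3 (0.962). Glrx, the cytosolic glutaredoxin, read 43.82, 31.12 and 38.42 RPKM in Irf3KO and 23.20, 18.53 and 17.93 RPKM in WT. Rplp0-ps1 is a pseudogene copy whose reads can be split with its parent gene, so its value is uncertain. Those closest to Nos2 were Psmd4 (0.987), Pdgfb (0.979), Stra13 (0.972), Usp4 (0.969) and Rcan3 (0.964). These r values pick the highest of many genes over few points that share the genotype and the library, and are descriptions only.

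The rest of the arginine network held no called gene. Of 41 further genes listed for arginine uptake, nitric oxide and its cofactor, the urea cycle, polyamines, proline and creatine, 35 were in the table and all 35 were tested. None was called by limma, and 3 had an unadjusted p under 0.05, where 8.4% of all genes tested did. The median log2 difference was 0.10 over the list and -0.09 over all genes, with 23 values above 0 and 12 below. Groups did not overlap for 7 of the 35, of which 4 were higher and 3 lower in Irf3KO, beside 18.4% of all genes tested (6.61% higher and 11.8% lower).

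Among the 7 genes of nitric oxide, its cofactor and the clearance of its inhibitors (Asl included), 5 had values above 0. Of the 7, 2 had an unadjusted limma p under 0.05 (Ddah1, lower, and Gch1, higher), where 8.4% of all genes tested did. Ddah1, which breaks down methylarginines that inhibit nitric oxide synthase, stood at 18.79, 15.45 and 16.18 RPKM in Irf3KO and at 32.84, 56.91 and 36.13 RPKM in WT. All Irf3KO libraries lay below all WT libraries, and the log2 difference of -1.23 ± 0.24 (SE, n = 3 per group) did not pass over all genes (limma adjusted p = 0.0977). Ddah2, which does the same chemistry, had a log2 difference of 0.16 ± 0.18 (limma adjusted p = 0.665).

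Gch1, the entry enzyme for tetrahydrobiopterin, the cofactor of nitric oxide synthase, stood at 5.58, 5.64 and 6.23 RPKM in Irf3KO and at 3.97, 3.8 and 3.65 RPKM in WT. Its groups did not overlap, as for Nos2, and its log2 difference of 0.50 ± 0.17 (SE, n = 3 per group) did not pass (limma adjusted p = 0.506). Spr, which completes tetrahydrobiopterin, was at 0.47 ± 0.26 (limma adjusted p = 0.556), and 0.20 without Irf3KO replicate 2. Nos3, the endothelial synthase, was at 0.10 ± 0.25 (limma adjusted p = 0.845).

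Transporters of the cell surface and of mitochondria were read separately. Of the 4 genes of uptake and exchange at the cell surface, 0 were called or had an unadjusted p under 0.05, and their log2 differences ran from -0.42 to 0.17. Slc3a2, the shared heavy chain of several such transporters, was at 0.17 ± 0.22 (limma adjusted p = 0.712). In the mitochondrial membrane Slc25a29, a carrier of basic amino acids, stood at 2.10, 5.16 and 2.81 RPKM in Irf3KO and at 1.18, 1.11 and 1.93 RPKM in WT. Its groups did not overlap, and the log2 difference was 0.81 ± 0.28 (SE, n = 3 per group; limma adjusted p = 0.513), or 0.53 without Irf3KO replicate 2. The ornithine carrier Slc25a15 was at 0.0081 ± 0.19 (limma adjusted p = 0.984).

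The 14 genes of polyamines and hypusine, an amino acid built from a polyamine, had 0 called and 0 with an unadjusted limma p under 0.05, and their median was 0.08. Eif5a, the protein that carries hypusine, was the most abundant at 281 ± 111 RPKM in Irf3KO and 180 ± 38.2 RPKM in WT (SD, n = 3 per group). Its log2 difference was 0.59 (limma adjusted p = 0.556), and 0.29 without Irf3KO replicate 2. Sat1, which acetylates polyamines for export, was at -0.31 ± 0.28 (limma adjusted p = 0.615). Oaz1, the antizyme that sends ornithine decarboxylase to degradation, was at 0.33 ± 0.34 (limma adjusted p = 0.651), and at -0.05 without Irf3KO replicate 2. The 6 proline genes had a median of 0.31 with 4 values above 0, and 0 were called or had an unadjusted p under 0.05. The 2 creatine genes, Gatm and Gamt, were at -0.40 ± 0.46 and 0.15 ± 0.28 (limma adjusted p = 0.681 and 0.797).

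**Figure D4:**
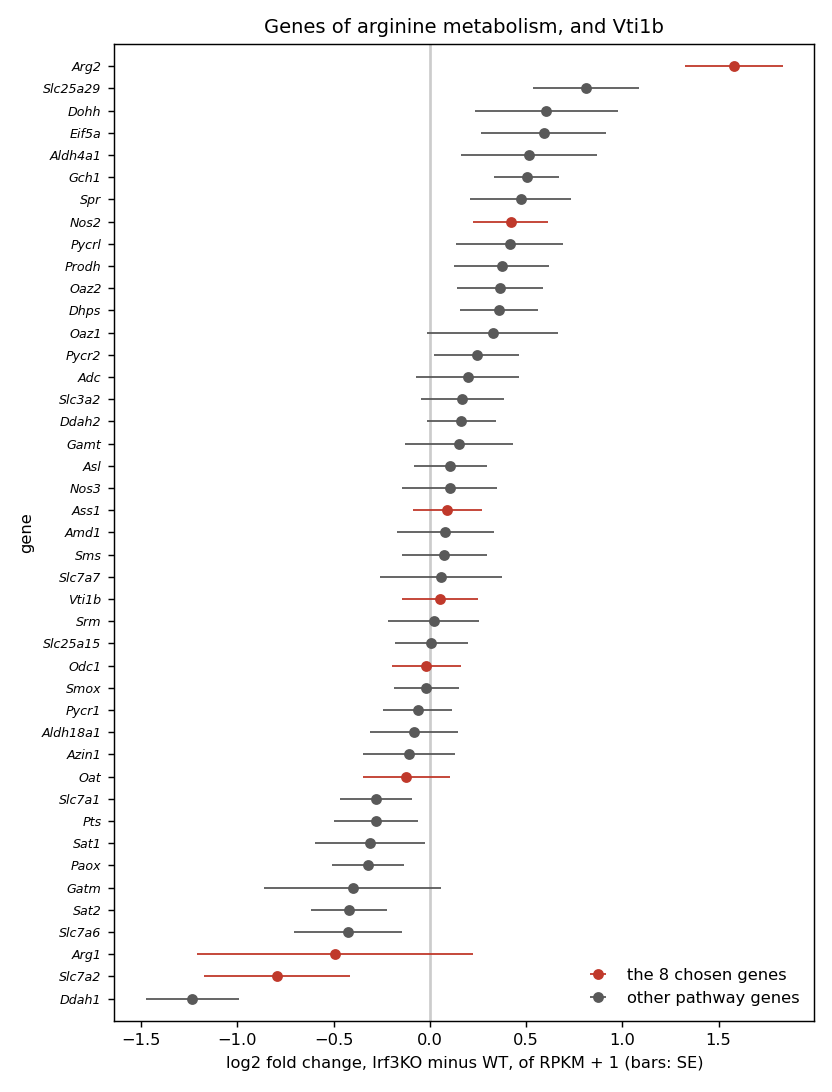
Log2 difference of RPKM + 1 between Irf3KO and WT for the 8 chosen genes (red) and 35 further genes of arginine metabolism (grey), sorted by value, with bars for the SE. Arg2 is at the top at 1.58 and Ddah1 at the bottom at -1.23, and the 35 further genes have a median of 0.10.

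Arg1 and Nos2 are widely used as marks of alternative and classical macrophage activation, so the other genes of those states were read as well. Of 11 tested genes listed with Arg1, 0 were called by limma, 0 had an unadjusted p under 0.05 (8.4% of all genes tested did), and the median log2 difference was 0.11. Cebpb, Il4ra and Mrc1, the most abundant, were at 0.27 ± 0.36, -0.08 ± 0.28 and -0.63 ± 0.43 (SE, n = 3 per group; limma adjusted p = 0.718, 0.901 and 0.563). Of 10 tested genes listed with Nos2, 0 were called, all 10 had values below 0 (59.3% of all genes tested did), and the median was -0.44, on the other side of 0 from Nos2 itself. Of these, 4 had an unadjusted limma p under 0.05, among them Cxcl9, Ccl5 and Socs1, which are also induced by interferon and were named after their values were seen. Irf5 and Il1b were at -0.07 ± 0.26 and -0.17 ± 0.36 (limma adjusted p = 0.896 and 0.823).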

How the data were processed

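RNA-seq values of 6 libraries of mouse infarct tissue were used, 3 per genotype. The authors deposited RPKM, rounded to 2 decimals, with a gene length per row. Tools named in the submitters' processing notes are STAR 2.3.0, HTSeq 0.6.0, Picard 1.100, edgeR 3.8.6 and SAMtools 0.1.18.0, with build NCBIM37 (mm9). The sources used here do not give their settings, strand handling or gene filter. Columns were matched to samples by title, and 5 lines with a displaced gene name were repaired.

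Depth was read from low RPKM values times gene length, which lie 1 read apart: in each library 100% of the 115 to 679 such values were whole to within 0.2 reads (chance gives 40%). Arg2 reads came from the same steps, with a rounding error of at most 0.442 reads.

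The 12913 genes whose mean was 1 RPKM or more were fitted by limma 3.58.1 (R 4.3.3) on log2(RPKM + 1) (trended eBayes, two-sided, Benjamini-Hochberg, threshold 0.05), knockout against wild type. On simulated data over 12913 genes, the fit called 73 of 100 genes set to change 4-fold in RPKM + 1. It called 30 of 100 set to change 2-fold, and 2 false ones. The simulation drew independent normal noise for each gene and capped its SD, below that of Arg1. Only genes above a low mean level were changed. Differences shared by the genes of a library were not simulated, so these counts may not hold for the real libraries. The labels do not say that the libraries are separate animals, so p-values measure only how these samples vary, which may be technical. An exact permutation test of 3 against 3 cannot go below p = 0.1.

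The genes and lists were chosen with earlier results of these data known. Named beyond the 8 genes were pathway genes with an unadjusted p under 0.05, the 6 most abundant pathway genes, the 3 most abundant genes of each macrophage activation list, and the 5 genes most like Arg1, Arg2 and Nos2. Other pathway genes were named to show a role, and 1 gene that the rule named is not reported here. Alternatives were another pseudocount, other filters, 2 other scalings, no trend, a replicate block and leaving out each library. GENCODE M21 and RefSeq annotation of GRCm38, another build than that of the files, gave sequences, the overlap length and gene order only. RefSeq promoter entries were found for Ass1, Oat, Odc1 and Vti1b and are not shown.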

Additional observations from a re-analysis of the deposited data

How the results depend on the processing

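With all libraries 65 genes were called (19 higher, 46 lower in the knockout). The count was 34 with a minimum mean of 5 RPKM, 104 with quantile normalization, and 21 to 97 with 1 library left out (21 without WT replicate 3, 97 without Irf3KO replicate 2). Median-of-ratios scaling moved the median of all genes from -0.09 to 0.02 and called 68. Arg2 was called in 4 of 6 settings that kept all libraries, with limma adjusted p = 0.0771 at a pseudocount of 0.1 and 0.0572 without the trend. As the genes were chosen by this contrast, these calls support nothing. With the 5 RPKM minimum, Arg2, Nos2, Ass1, Gch1 and Slc25a29 were not tested. The pathway list had 0 calls in every setting but the block. Oaz1 reversed to -0.049 without Irf3KO replicate 2, and otherwise reached up to 0.62 with 1 library left out.

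The replicate numbers were not found to pair the libraries: deviations of same-numbered libraries correlated at 0.13, -0.10 and -0.10. With the replicate block 250 genes were called, and 1 pathway gene, Ddah1 (adjusted p = 0.0134).

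The difference in log2(Arg2/Vti1b), 2.58, was 2.18 to 2.95 with 1 library left out. It was taken on RPKM with no pseudocount, so it cannot be set beside the Arg2 difference of 1.58 on log2(RPKM + 1). The 8 genes were held to size only: of their values, all but 2 moved by less than 1 SD (Arg2 at a pseudocount of 0.1, 2.44, and Ass1 with quantile normalization, 0.29). Within that size the sign turned 10 times, for Arg1, Vti1b, Odc1 and Oat, none of them called, and Arg2 lost its call in 7 of 12 alternatives. Of the named pathway genes, Ddah1 passed the threshold once and Oaz1 reversed once. Counting error limits Arg2 most in WT, where its level of 0.37 to 1.08 RPKM left 11 to 29 reads.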
